A study of Mus musculus with 6 samples.

Results

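Potassium channel genes were taken as every gene symbol that starts with Kcn in the deposited table of tail tendon RNA-seq counts. The table held 98 such symbols among 44788, and 39 of them had at least 10 counts in 3 or more of the 6 libraries. *Kcnj15* was set against the other 38 because it had the largest rise in the knockout. Its own difference between genotypes is therefore given as a description, with no test. The study compared tail tendons of wild-type (WT) C57BL/6 mice with those of C57BL/6 mice lacking *Mkx*, the tendon transcription factor Mohawk (*Mkx*-/-), with 3 libraries per genotype. The labels gave an age of 3 weeks for both groups, and the study's text a slightly older one. RNA came from whole minced tendon without any sorting of cells, so fewer cells of a type and less RNA per cell cannot be told apart. Whether a library held 1 animal or a pool, and how the *Mkx* allele was made, were not given in the sources used here.

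Potassium channels let potassium ions cross the cell membrane along their gradient and thereby set the resting potential of a cell and the shape of its electrical signals. Inward rectifiers (Kcnj) and tandem-pore channels (Kcnk) mainly carry current near rest, whereas voltage-gated channels (Kcna, Kcnb, Kcnc and others) open on depolarization and calcium-activated channels (Kcnma, Kcnn) open when intracellular calcium rises. Auxiliary subunits (Kcne, Kcnab, Kcnip) change the gating or trafficking of the pore-forming proteins. In bulk tendon these transcripts can come from tenocytes as well as from nerve, vessel and muscle cells.

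The libraries held 10835070 to 14160301 counts. *Mkx*, the targeted gene, averaged 138 CPM (read counts scaled to library size and composition; SD 4.90, n = 3) in WT against 45.6 CPM (SD 9.68, n = 3) in *Mkx*-/- tendons, with no overlap (log2 fold change -1.597, edgeR adjusted p = 0.00183). Fold changes here are *Mkx*-/- against WT. WT library 3 was the only library with *Ddx3y* reads (301) and almost no *Xist* (1), and the other 5 libraries had 1289 to 1866 *Xist* counts. Sums of cell type markers also differed in range. Skeletal muscle markers summed to 118 to 510 CPM in WT and 726 to 3569 CPM in *Mkx*-/- libraries, with 6 of 26 tested higher at an adjusted p under 0.05, beside 3.18% of all genes tested that were higher and 2.26% that were lower. Schwann cell and nerve markers summed to 8191 to 10825 CPM and 12665 to 23434 CPM, with 0 of 11 past the test. Endothelial markers summed to 111 to 137 CPM and 190 to 266 CPM, with 2 of 15 higher (*Erg* and *Ecscr*). Macrophage and leukocyte markers summed to 733 to 765 CPM and 461 to 524 CPM, with 3 of 13 lower. Smooth muscle and pericyte markers reached 1189 CPM in *Mkx*-/- library 3 against 360 to 423 CPM in the other 5, with 0 of 10 past the test. Chondrocyte and osteoblast markers summed to 2214 to 2413 CPM and 3090 to 4256 CPM, with 4 of 11 higher. Tendon genes summed to 380858 to 523299 CPM and 244039 to 338820 CPM, with 1 of 10 higher (*Thbs4*) and 1 lower, which was *Mkx* itself. Most of this sum was *Col1a1* (means of 185031 CPM in WT and 115350 CPM in *Mkx*-/-) and *Col1a2* (257486 and 127196 CPM), neither past the test. Among the rest, *Fmod*, *Dcn* and *Tnmd* had log2 fold changes of 0.11, -0.03 and -0.02. *Tnc* was at 1.13, and *Egr1* and *Scx* were at -1.13 and -1.14. Of 7 tested epidermal genes 0 passed. No marker of these lists was at 0 in every library, and the part of any of these cell types in the results that follow was not tested.

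*Kcnj15* (ENSMUSG00000062609.7) encodes an inwardly rectifying potassium channel best known from kidney and other epithelia. It lies on the plus strand of mm9 chromosome 16 from 95479165 to 95521867, with no other annotated gene overlapping it. WT libraries 1, 2 and 3 had 13, 16 and 18 *Kcnj15* counts, and the *Mkx*-/- libraries had 1053, 1515 and 858. On the CPM scale these were 1.02, 1.57 and 1.44 against 96.3, 106 and 67.8. The gene was thus close to the count limit in every WT library and among the more abundant potassium channel transcripts in every knockout library, and the groups did not overlap. Mean levels were 1.34 ± 0.285 CPM and 90.1 ± 19.9 CPM (SD, n = 3 each), a ratio of 67.1. The fitted log2 fold change was 6.07 and lay between 5.90 and 6.32 under every other processing tried. In *Mkx*-/- libraries 1, 2 and 3 the chondrocyte and osteoblast markers summed to 3520, 4256 and 3090 CPM, the order of *Kcnj15*. Among them *Comp* and *Col10a1* had this order, *Col10a1* with 8, 29 and 8 counts and so tied in libraries 1 and 3 before scaling. The 4 that passed the test did not have it. These were *Ucma* (80.0, 66.5 and 71.6 CPM), *Acan* (172, 109 and 159), *Matn3* (104, 88.3 and 79.2) and *Spp1* (65.4, 137 and 110). The muscle markers summed to 3569, 1720 and 726 CPM, another order. The cells that the *Kcnj15* reads came from were not tested.

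The 250 bases upstream of the *Kcnj15* start are shown beside those of *Kcnma1*, a channel gene that fell, with CG dinucleotides in capitals. They are printed from RefSeq (GRCm38.p6), were each found once in mm9 by exact match, and read 5′ to 3′ on the strand of the gene. The windows lie at chr16:95478915-95479164 (plus strand) for *Kcnj15* and chr14:24823428-24823677 (minus strand) for *Kcnma1*.
Kcnj15: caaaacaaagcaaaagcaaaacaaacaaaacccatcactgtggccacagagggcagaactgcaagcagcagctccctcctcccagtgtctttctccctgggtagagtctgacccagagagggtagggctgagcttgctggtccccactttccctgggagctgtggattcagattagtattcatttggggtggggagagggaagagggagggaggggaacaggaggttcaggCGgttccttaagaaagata
Kcnma1: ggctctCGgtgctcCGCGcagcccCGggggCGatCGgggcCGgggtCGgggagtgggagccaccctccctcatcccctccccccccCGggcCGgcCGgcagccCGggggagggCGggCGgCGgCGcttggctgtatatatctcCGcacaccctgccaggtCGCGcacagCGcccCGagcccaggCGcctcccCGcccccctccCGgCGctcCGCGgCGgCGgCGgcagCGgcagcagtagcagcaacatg
The *Kcnj15* window holds 1 CG, and 18.8% of 32851 RefSeq windows of the same length hold as few or fewer. A low number was not particular to it, since the window of *Kcnk1*, an abundant member that passed the test in neither direction, holds 0. The *Kcnma1* window holds 31, with 95.4% of windows at or below that number, and lies 200901 bases upstream of the start that the mm9 annotation gives the gene. Of the 39 reported members, 29 had a window (41 windows in all), with a median of 7 CG against 6 over all windows. The letters TATAAA, searched on both strands, were in 12.4% of all windows and in 0 of the 41 member windows. ACANNTGT, the palindromic site of Iroquois-type homeodomain proteins, was in 6.31% of all windows and again in 0 of the 41.

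Among potassium channel transcripts *Kcnj15* moved from the low end to near the top. Its share of all Kcn counts was 0.241, 0.335 and 0.273% in WT, compared with 17.5, 17.2 and 10.96% in *Mkx*-/-. Per kilobase of exon, it ranked 32 of the 37 members with a usable length in WT tendons, at 0.20 CPM per kb, and 3 in *Mkx*-/- tendons, at 13.4 CPM per kb. Only *Kcnk1* (35.6 CPM per kb) and *Kcnk2* (19.5) had higher mean levels there, and *Kcna2* (13.3) and *Kcna1* (12.7) followed it, so that *Kcnj15*, *Kcna2* and *Kcna1* did not differ beyond their spread. In WT tendons the order was *Kcnk1* (27.5 CPM per kb), *Kcnk2* (20.7), *Kcnma1* (20.4), *Kcna1* (9.16), *Kcna2* (8.61) and *Kcnk6* (4.23). *Kcnk1*, *Kcnk2* and *Kcnma1* lay within each other's spread, as did *Kcna1* and *Kcna2*. *Kcnma1* was at 8.61 CPM per kb in *Mkx*-/- tendons, sixth in that order.

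**Figure D1:**
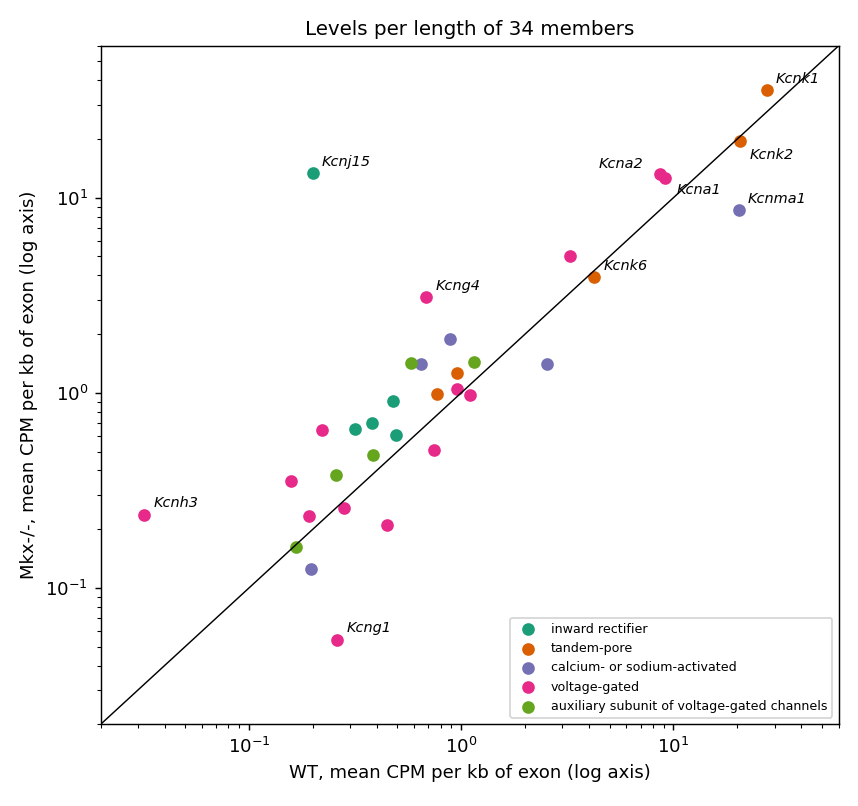
Mean level per kilobase of exon of 34 members with a usable length, in WT (x axis) and *Mkx*-/- tendons (y axis), both in CPM per kb on log axes, coloured by channel family, with a line of equal levels. *Kcnj15* stands far above the line, at 0.20 CPM per kb in WT and 13.4 in *Mkx*-/-, and *Kcnma1* lies below it.

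Of the 38 other reported members, 37 were tested and 3 rose (*Kcng4*, *Kcnn4* and *Kcnh3*), 5 fell (among them *Kcnma1*, *Kcnn1*, *Kcng1* and *Kcnb2*) and 29 passed the test in neither direction (edgeR quasi-likelihood test, Benjamini-Hochberg adjusted p under 0.05 over 14550 genes). The shares were 8.11% rising and 13.5% falling, beside 3.18% and 2.26% of all genes tested (5.44% in either direction). With a 2-fold limit added, 3 members rose and 4 fell, *Kcnn1* being inside the limit, beside 1.89% and 1.33% of all genes. *Kcnh3* was reported only through the knockout libraries and *Kcnb2* and *Kcng1* only through the WT libraries, so the count limit itself favoured a difference in these 3. Their calls are given as descriptions, and the counts and shares above, which include them, are limited in the same way. The median log2 fold change of the 37 was 0.34, and that of all genes tested -0.0037. The groups did not overlap for 13 members, 8 higher and 5 lower in *Mkx*-/-, beside 14.6% and 13.6% of all genes. *Kcna5*, a voltage-gated channel, was reported but too low to be tested, with 5, 3 and 13 counts in WT and 4, 10 and 13 counts in *Mkx*-/- libraries.

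**Figure D2:**
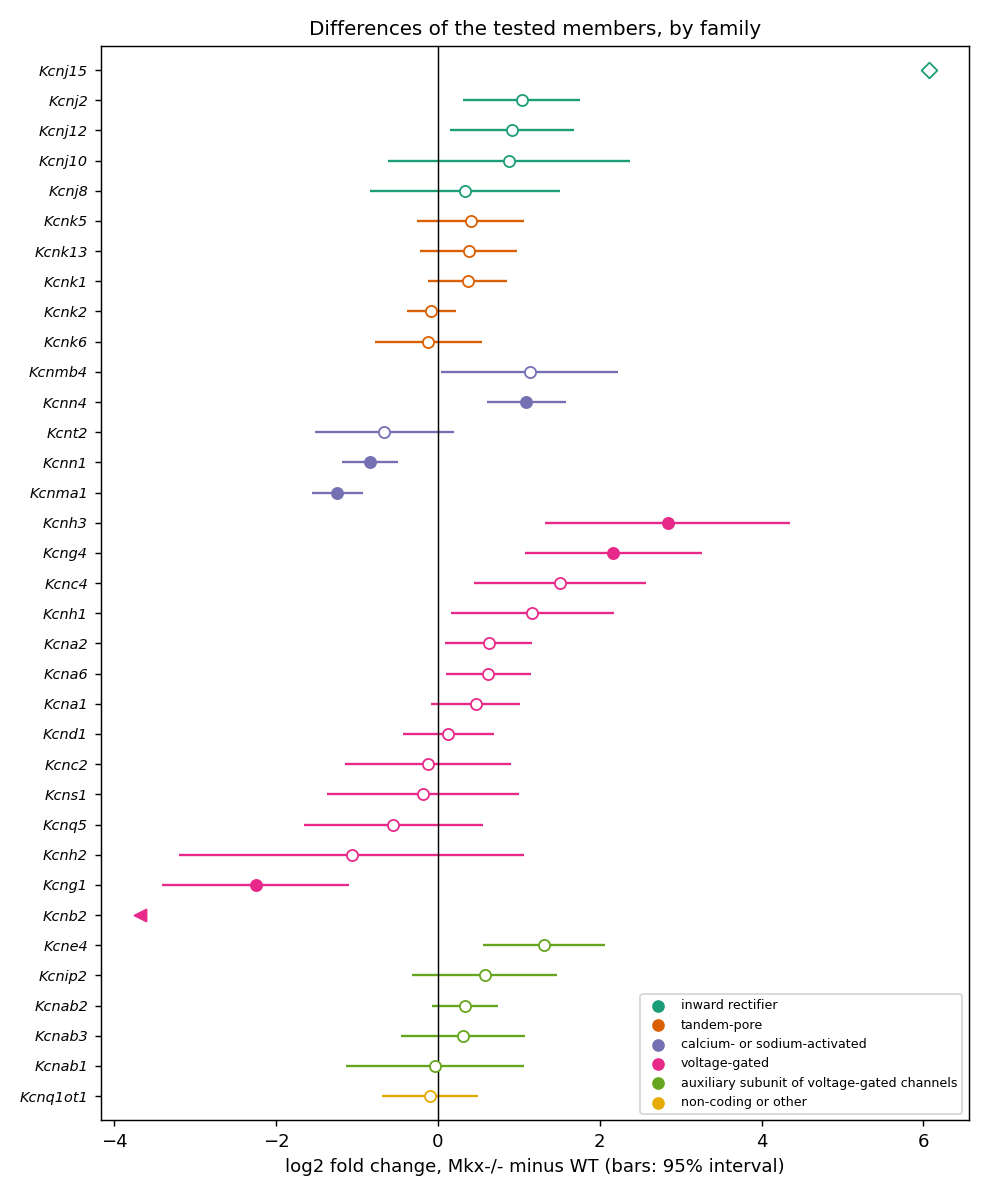
Log2 fold change (*Mkx*-/- minus WT) of *Kcnj15* and 34 of the tested members, grouped and coloured by family, with the 95% interval of each gene, not adjusted for the number of genes. Filled points passed an adjusted p of 0.05, and the open diamond is *Kcnj15* (6.07, not tested). The triangle is the approximate bound for *Kcnb2*, which had 0 counts in every *Mkx*-/- library.

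Apart from *Kcnj15*, no inward rectifier passed the test. The other 4 reported members of this family, of 15 annotated, all stayed under 8 CPM. *Kcnj2*, a strong rectifier that holds the resting potential of muscle and heart cells, was at 1.10, 1.67 and 2.40 CPM in WT and 3.93, 3.15 and 3.56 CPM in *Mkx*-/- libraries, without overlap (log2 fold change 1.04, 95% interval 0.31 to 1.76, adjusted p = 0.0975). *Kcnj12*, which encodes a close relative of it, was at 1.02, 0.98 and 1.92 CPM against 2.74, 2.31 and 2.45 CPM (log2 fold change 0.92, interval 0.15 to 1.69, adjusted p = 0.149). Both were higher in every knockout library, without reaching the threshold. *Kcnj10*, a glial channel of the same subfamily as *Kcnj15*, was at 1.42, 1.37 and 3.36 CPM against 1.37, 2.17 and 7.83 CPM (log2 fold change 0.88, adjusted p = 0.475). *Kcnj8*, the pore of vascular ATP-sensitive channels, was at 0.71, 1.47 and 1.04 CPM against 0.64, 1.05 and 2.29 CPM (log2 fold change 0.34, adjusted p = 0.752). Both were highest in *Mkx*-/- library 3, the library with the highest smooth muscle and Schwann cell marker sums, and without it their log2 fold changes were -0.20 and -0.30. The family as a whole summed to 5.74, 7.64 and 10.2 CPM in WT and 108, 116 and 85.4 CPM in *Mkx*-/- libraries, and to 4.72, 6.08 and 8.80 against 11.2, 10.2 and 17.6 CPM with *Kcnj15* left out. *Kcnj15* accounted for 17.8, 20.5 and 14.1% of inward rectifier counts in WT and for 89.5, 91.3 and 79.4% in *Mkx*-/- libraries.

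In the family of calcium- or sodium-activated channels, 5 of 14 symbols were reported, of which 2 fell and 1 rose. The 14 include *Kcnmb4os1* and *Kcnmb4os2*, named as opposite-strand transcripts of *Kcnmb4* and not reported. *Kcnma1* (ENSMUSG00000063142.6, mm9 chromosome 14, 24117983 to 24622526, minus strand), the pore of the large-conductance calcium-activated channel, was at 93.5, 97.6 and 99.7 CPM in WT and 46.1, 43.0 and 33.8 CPM in *Mkx*-/- libraries. Every knockout library lay below every WT library, and the WT libraries were close to each other. Mean levels were 96.9 ± 3.16 and 40.97 ± 6.36 CPM (SD, n = 3 each), and the log2 fold change was -1.24 (SE 0.14, edgeR adjusted p = 0.00291). The call held without any single library, with log2 fold changes of -1.35 to -1.12. Within each library, *Kcnj15* had 0.0109, 0.0161 and 0.0144 counts per *Kcnma1* count in WT and 2.09, 2.47 and 2.005 in *Mkx*-/-, a ratio that does not depend on scaling.

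The small- and intermediate-conductance calcium-activated channels went in opposite directions. *Kcnn1*, a small-conductance channel known from neurons, was at 9.83, 10.3 and 10.6 CPM in WT and 5.39, 6.10 and 5.61 CPM in *Mkx*-/- libraries (log2 fold change -0.84, SE 0.15, edgeR adjusted p = 0.0201). *Kcnn4*, the intermediate-conductance channel of blood cells and fibroblasts, was at 1.97, 2.25 and 2.48 CPM against 4.94, 4.49 and 4.90 CPM (log2 fold change 1.09, SE 0.21, edgeR adjusted p = 0.0265). In both genes the groups stood clear of each other and varied little within a genotype. Each call held when WT library 1 was left out (adjusted p = 0.0228 and 0.0488) and was lost without any other single library, with adjusted p of 0.0512 to 0.0749 for *Kcnn1* and 0.0683 to 0.0889 for *Kcnn4*. With scaling to total counts only, *Kcnn1* had a log2 fold change of -0.58 and an adjusted p of 0.0758. *Kcnmb4*, a modulatory subunit of the *Kcnma1* channel, was at 1.65, 2.06 and 2.72 CPM against 1.83, 4.49 and 7.75 CPM (log2 fold change 1.13, adjusted p = 0.205). It overlaps genes on the opposite strand and its reads could not be assigned to a strand. *Kcnt2*, a sodium-activated channel, had a log2 fold change of -0.66 (adjusted p = 0.347). The family sum was 109, 114 and 118 CPM in WT and 60.4, 60.9 and 57.6 CPM in *Mkx*-/- libraries, and in every library *Kcnma1* made up most of it.

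The 250 bases before *Kcnn4* and before *Kcng4*, a voltage-gated family member that also rose, are given in the same form, at chr7:25155032-25155281 (plus strand) and chr8:122159581-122159830 (minus strand), to set them beside that of *Kcnj15*.
Kcnn4: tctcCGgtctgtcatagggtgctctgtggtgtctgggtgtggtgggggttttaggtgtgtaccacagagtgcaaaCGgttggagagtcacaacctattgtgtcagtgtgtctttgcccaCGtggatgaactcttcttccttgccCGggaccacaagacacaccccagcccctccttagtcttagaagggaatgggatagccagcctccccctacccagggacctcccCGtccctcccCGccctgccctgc
Kcng4: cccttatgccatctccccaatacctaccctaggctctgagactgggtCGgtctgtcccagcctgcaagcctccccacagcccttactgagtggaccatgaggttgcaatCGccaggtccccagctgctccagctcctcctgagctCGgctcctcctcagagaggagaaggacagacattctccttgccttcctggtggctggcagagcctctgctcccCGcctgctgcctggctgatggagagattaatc
They hold 6 and 4 CG, numbers at or below which 53.7 and 44.4% of all windows fall. *Kcnh3*, *Kcnb2* and *Kcng1* had no window in the table used.

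Voltage-gated channels were the largest family, with 18 of 40 symbols reported, 3 that fell and 2 that rose. Those that fell included *Kcnb2*, which encodes a delayed rectifier pore, and *Kcng1*, an electrically silent subunit that forms channels only together with such pores. *Kcnb2* had 13, 11 and 12 counts in WT libraries and 0 in each *Mkx*-/- library. With 3 counts over the group taken as the upper limit for a count of 0, it was 12.8-fold lower or more in *Mkx*-/- (edgeR adjusted p = 0.0121). This bound is approximate, since it rests on a chosen limit and leaves out the spread between libraries. *Kcng1* had 11, 10 and 21 counts against 4, 3 and 2 counts (log2 fold change -2.25, SE 0.51, edgeR adjusted p = 0.0418). Both were low, at about 1 CPM in WT, and met the count limit only through WT libraries, so that the limit itself favoured a separation of the groups. *Kcnb2* lost its call without WT library 2 (adjusted p = 0.0624) or WT library 3 (0.0590) and was not tested without WT library 1, whereas *Kcng1* kept it only without WT library 1 (0.0410), with adjusted p of 0.0622 to 0.145 without any other library. *Kcnb2* has 2 records in the mm9 annotation, so no coordinates are given for it.

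*Kcng4*, another silent subunit, went the opposite way from *Kcng1*, with 10, 26 and 56 counts in WT and 171, 143 and 121 counts in *Mkx*-/- libraries. On the CPM scale these were 0.79, 2.55 and 4.48 against 15.6, 10.03 and 9.57. The WT libraries differed among themselves several-fold, and the lowest knockout library still lay above the highest of them. The log2 fold change was 2.17 (SE 0.48, edgeR adjusted p = 0.0404), and the call held without WT library 1 (adjusted p = 0.0182) or WT library 3 (0.0379) but not without any of the other 4 libraries (0.0802 to 0.131) and not with edgeR's robust fit (0.0549). *Kcnh3*, an ether-a-go-go type channel of brain, had 0, 2 and 2 counts against 10, 11 and 12 counts (log2 fold change 2.84, SE 0.66, edgeR adjusted p = 0.0468), at a depth where a few reads decide the value, and it met the count limit only through the *Mkx*-/- libraries. Its call was lost without any single library, with adjusted p of 0.0688 (without WT library 1) to 0.135 (without *Mkx*-/- library 3).

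**Figure D3:**
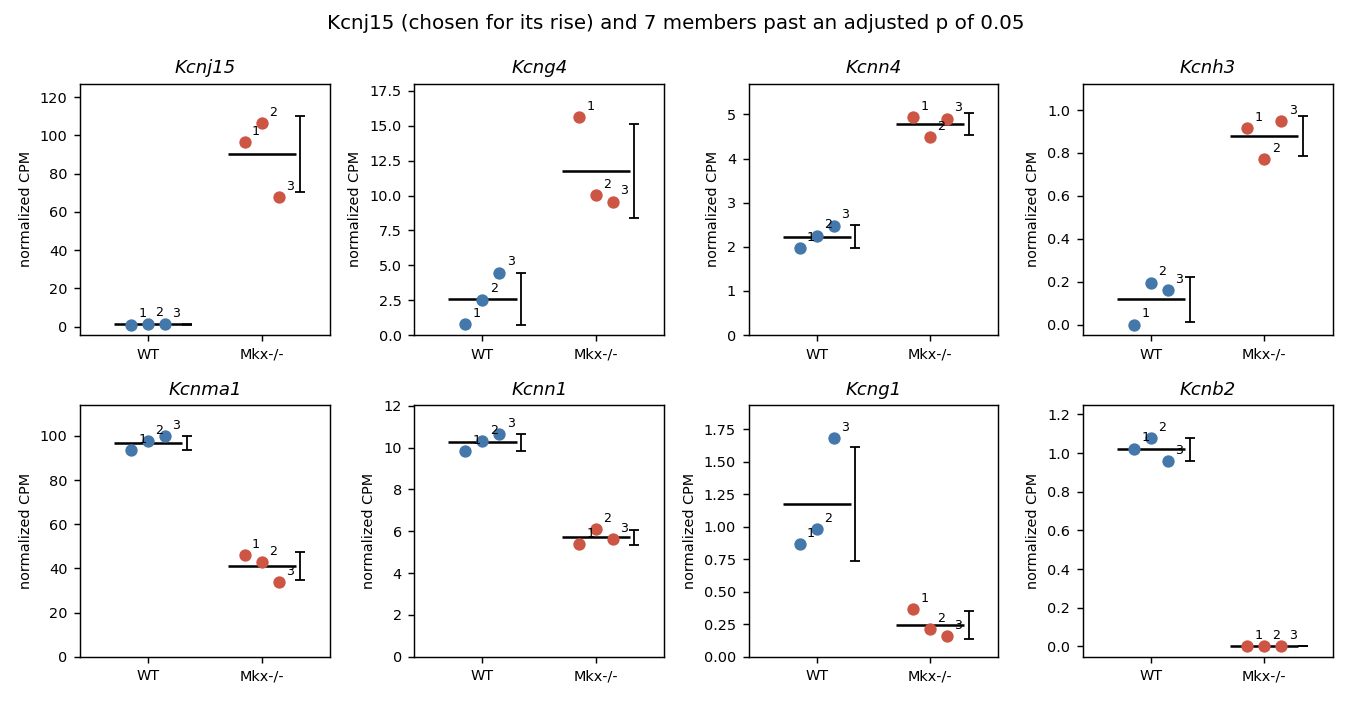
CPM of *Kcnj15* and of 7 other members past an adjusted p of 0.05, 1 panel per gene with its own axis, 1 point per library (numbered by replicate) and a bar for the group mean with its SD. *Kcnj15* spans 1.02 to 106 CPM, *Kcnma1* falls from 93.5 to 99.7 CPM in WT to 33.8 to 46.1 CPM in *Mkx*-/-, and in each of the 8 panels the genotypes do not overlap.

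*Kcna1*, *Kcna2* and *Kcna6*, delayed rectifiers that sit beside the nodes of myelinated axons, were the most abundant voltage-gated members and moved together between libraries. *Kcna1* was at 80.7, 76.2 and 89.5 CPM in WT and 69.9, 134 and 136 CPM in *Mkx*-/- libraries (log2 fold change 0.47, adjusted p = 0.295). *Kcna2* was at 29.0, 27.3 and 32.9 CPM against 28.9, 51.0 and 57.6 CPM (log2 fold change 0.63, adjusted p = 0.163). *Kcna6* was at 18.3, 18.6 and 21.2 CPM against 19.1, 33.8 and 36.5 CPM (log2 fold change 0.62, adjusted p = 0.151). In each of the 3 genes *Mkx*-/- libraries 2 and 3 lay above the WT range and library 1 within or below it. Without *Mkx*-/- library 1 their log2 fold changes were 0.70, 0.85 and 0.84, with adjusted p of 0.0418, 0.0266 and 0.0261. Within libraries the ratio of *Kcna6* to *Kcna2* counts stayed between 0.631 and 0.681, although *Kcna2* lies on chromosome 3 and *Kcna1* and *Kcna6* on chromosome 6. The ratio of *Kcna1* to *Kcna2* lay between 2.37 and 2.79 and was lower in every knockout library. It was 2.78, 2.79 and 2.72 in WT and 2.42, 2.63 and 2.37 in *Mkx*-/- libraries. *Pmp22*, a protein of the myelin of peripheral nerve, was at 2154, 2046 and 2513 CPM in WT and 3007, 4915 and 5470 CPM in *Mkx*-/- libraries (log2 fold change 0.997, adjusted p = 0.0520). It was likewise highest in *Mkx*-/- libraries 2 and 3 but, unlike the 3 Kcna genes, lay above the WT range in library 1 as well. The lincRNA *Gm17456* shares 2343 exon bases with *Kcna6* on the opposite strand.

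**Figure D4:**
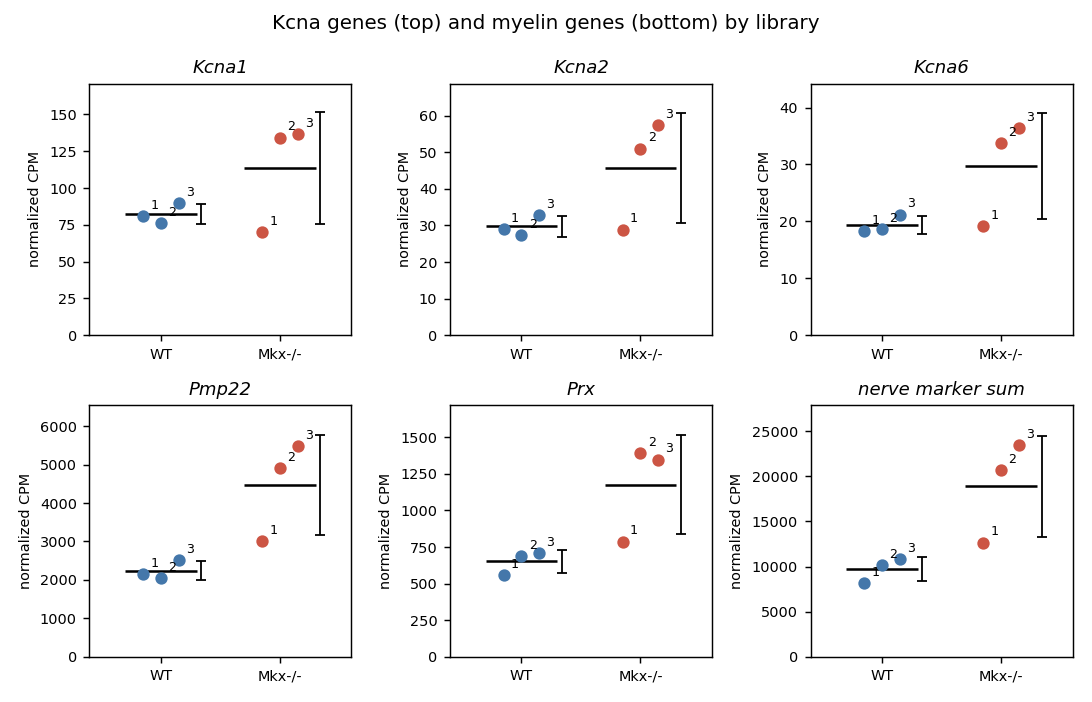
Normalized CPM (y axes) of *Kcna1*, *Kcna2* and *Kcna6* (top) and of the myelin genes *Pmp22* and *Prx* and the summed Schwann cell and nerve markers (bottom), 1 numbered point per library, with a bar for the group mean and its SD. In all 6 panels *Mkx*-/- library 1 is the lowest of its group and libraries 2 and 3 lie above every WT library. Library 1 also lies above every WT library in the bottom panels, but not in the top ones.

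The remaining voltage-gated members described here did not pass the test. *Kcnc4*, a fast delayed rectifier, had 15, 5 and 4 counts in WT and 24, 29 and 20 counts in *Mkx*-/- libraries, without overlap (log2 fold change 1.51, adjusted p = 0.0993). *Kcnh1*, an ether-a-go-go channel, had a log2 fold change of 1.17 (adjusted p = 0.163). *Kcnh2*, the cardiac repolarization channel, varied widely, at 0.39, 2.45 and 3.68 CPM in WT and 0.18, 0.35 and 2.53 CPM in *Mkx*-/- libraries (log2 fold change -1.07, adjusted p = 0.548). *Kcnd1*, *Kcnc2*, *Kcns1* and *Kcnq5* had log2 fold changes between -0.55 and 0.13. In each of these 4 genes the genotypes overlapped.

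The tandem-pore channels, background channels that hold the resting potential, included the most abundant members, and 0 of the 5 reported, of 14 annotated, passed the test. *Kcnk1*, a weakly conducting background channel, was at 42.3, 68.4 and 79.3 CPM in WT and 88.1, 80.1 and 77.5 CPM in *Mkx*-/- libraries (log2 fold change 0.37, 95% interval -0.12 to 0.86, adjusted p = 0.352). *Kcnk2*, which opens on membrane stretch, was at 69.4, 76.8 and 78.0 CPM against 81.1, 62.7 and 68.2 CPM (log2 fold change -0.08, interval -0.38 to 0.22, adjusted p = 0.772, and 0.17 with scaling to total counts only). The interval is that of a single gene, not adjusted for the number of genes. *Kcnk6*, a relative of *Kcnk1*, was at 10.8, 18.8 and 23.1 CPM against 18.8, 11.6 and 18.2 CPM (log2 fold change -0.12, interval -0.78 to 0.55, adjusted p = 0.857), a value whose sign turned with total count scaling (0.15), without WT library 3 (0.12) and without *Mkx*-/- library 2 (0.078). *Kcnk5* and *Kcnk13* had log2 fold changes of 0.40 and 0.38 (adjusted p = 0.459 and 0.439). The family summed to 127, 170 and 187 CPM in WT and 194, 162 and 177 CPM in *Mkx*-/- libraries, ranges that overlap.

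Auxiliary subunits, with 5 of 13 reported, gave no call either. *Kcne4*, a single-pass subunit that inhibits several voltage-gated channels, came closest, at 0.87, 1.86 and 1.60 CPM in WT and 3.93, 3.86 and 2.85 CPM in *Mkx*-/- libraries. The groups did not overlap (log2 fold change 1.31, edgeR adjusted p = 0.0599), and DESeq2 gave an adjusted p of 0.0274, past the threshold. In edgeR it also passed with scaling to total counts (0.0185). The filters of 1 count in any library (0.0222) and 10 counts in every library (0.0455) gave a call too. It passed in 0 of the 6 fits that left out 1 library, and not with the other scalings, the robust fit or the replicate block (0.0559 to 0.111). *Kcnab2* and *Kcnab3*, cytoplasmic beta subunits, had log2 fold changes of 0.33 and 0.31 (adjusted p = 0.315 and 0.636), *Kcnab1* one of -0.03 and *Kcnip2* one of 0.58. *Kcnq1ot1*, a non-coding RNA that shares the symbol stem but encodes no channel, had a log2 fold change of -0.10 (adjusted p = 0.866).

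The count limit left out 59 Kcn symbols, 19 of them at 0 in every library. Just inside it, by the third-highest count, were *Kcng1*, *Kcna5* and *Kcnh3* at 10 and *Kcnb2* at 11. Just outside were *Kcnd2* at 9, with 9, 11 and 12 counts in WT and 2, 0 and 1 counts in *Mkx*-/- libraries, and *Kcns3* and *Kcnu1* at 7. Some excluded genes had reads mainly in libraries with high sums of another cell type. *Kcnj11*, the pore of muscle and islet ATP-sensitive channels, had 2, 2 and 0 counts against 26, 16 and 5, and *Kcna7* had 0, 0 and 2 against 15, 10 and 4, the order of the skeletal muscle marker sums within *Mkx*-/-. *Kcnmb1*, the smooth muscle subunit of the *Kcnma1* channel, had 39 counts in *Mkx*-/- library 3 and 0 in the other 5, and *Kcnk3* had 38 there and at most 1 elsewhere.

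The genes around *Kcnj15* were examined by position alone. Of 28 annotated genes within 1 Mb of its ends, 18 were in the table, 13 were tested, 1 rose and 0 fell, beside 5.44% of all genes tested that rose or fell. The gene that rose was the next tested one along the chromosome, *Erg*, an ETS transcription factor of endothelium and cartilage that is also on the endothelial marker list. Its nearer end, the 3′ end, lies 58.9 kb beyond *Kcnj15* (mm9 chromosome 16, 95580776 to 95808200, minus strand), and it was at 6.76, 8.43 and 9.68 CPM in WT and 44.1, 37.02 and 26.8 CPM in *Mkx*-/- libraries. Mean levels were 8.29 ± 1.46 and 35.96 ± 8.68 CPM (SD, n = 3 each), without overlap (log2 fold change 2.12, SE 0.22, edgeR adjusted p = 0.00195). The call held without any single library. On the other side the nearest of the 18 genes in the table, *Kcnj6*, another inward rectifier, lies 259.9 kb away and had 0 counts in every library. *Ets2*, a relative of *Erg* 402 kb from *Kcnj15*, had a log2 fold change of -0.09 (adjusted p = 0.722), and the other 11 tested genes lay between -0.45 and 0.19. *Brwd1* passed the test only without WT library 1 (log2 fold change -0.57, adjusted p = 0.0360).

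**Figure D5:**
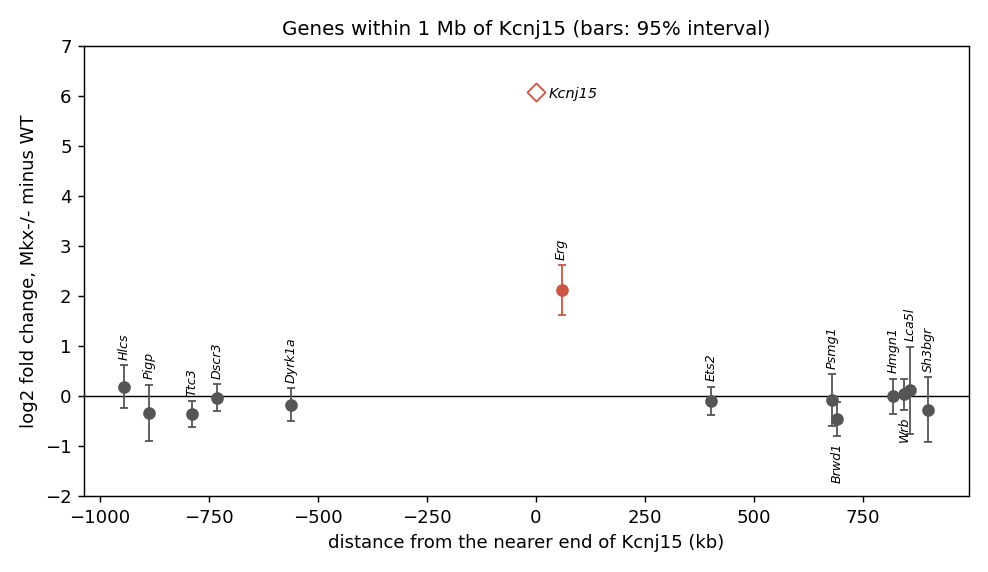
Log2 fold change (*Mkx*-/- minus WT, y axis) of the 13 tested genes within 1 Mb of *Kcnj15* against their distance from its nearer end (x axis, kb), with the 95% interval of each gene. *Kcnj15* (open diamond, 6.07, not tested) and *Erg* (2.12) stand above the other genes, which lie between -0.45 and 0.19.

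Channels work beside pumps and transporters that build the potassium gradient, and a list of 38 such partners was read from the same fit. Of its 25 tested genes, 5 rose, 1 fell and 19 passed in neither direction, with a median log2 fold change of 0.43, beside 3.18% rising, 2.26% falling and a median of -0.0037 over all genes tested. *Atp1b2*, a beta subunit of the sodium-potassium pump, averaged 9.98 ± 0.502 CPM in WT against 21.2 ± 1.85 CPM (SD, n = 3 each) in *Mkx*-/- tendons (log2 fold change 1.08, edgeR adjusted p = 0.00393). *Fxyd1*, a regulator of that pump, was at 14.4 ± 1.21 and 28.3 ± 1.76 CPM (log2 fold change 0.97, edgeR adjusted p = 0.00474). Both calls held without any single library. *Tmem38a*, a potassium channel of the sarcoplasmic reticulum in muscle, was at 11.1 ± 0.679 and 20.1 ± 3.68 CPM (log2 fold change 0.85, edgeR adjusted p = 0.0236). *Fxyd5*, another pump regulator, was at 28.5 ± 4.21 and 46.5 ± 3.48 CPM (log2 fold change 0.71, edgeR adjusted p = 0.0274). Leaving out 1 library took the adjusted p of *Tmem38a* to between 0.0240 and 0.0973, past the threshold without WT library 1 or *Mkx*-/- library 2 alone, and that of *Fxyd5* to between 0.0370 and 0.115, past it without WT library 1 or 2 alone. *Atp12a*, a proton-potassium pump subunit, had 0, 3 and 1 counts against 13, 11 and 23 counts (log2 fold change 3.34, edgeR adjusted p = 0.0429), and it reached 10 counts only in *Mkx*-/- libraries, so that the filter on low counts itself favoured a difference. The gene that fell, *Dpp10*, an auxiliary subunit of voltage-gated channels, had 46, 12 and 21 counts in WT and 4, 0 and 3 counts in *Mkx*-/- libraries (log2 fold change -3.47, edgeR adjusted p = 0.0395), and its call was lost without any single library (0.0576 to 0.115). It too reached 10 counts in 1 genotype alone, here WT.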

How the data were processed

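RNA of minced tail tendons (3 WT and 3 *Mkx*-/- libraries) was extracted with Trizol, and libraries were made with the Ion Total RNA-Seq Kit v2. The authors deposited raw counts, whole reads per gene symbol from trimmed and quality-filtered reads aligned to mm9 with MapSplice, with no normalization. The counting program, its annotation and whether it used strand are not given in the sources used here. Each of the 6 columns carried the name of its sample, and 0 columns had none.

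From the deposited counts, CPM and fold changes were derived with edgeR 4.0.16 in R 4.3.3 (TMM, filterByExpr with a minimum count of 10, quasi-likelihood test on genotype, prior count 0.125). The p-values were adjusted by Benjamini-Hochberg over 14550 genes, and calls used an adjusted p under 0.05. The fitting code was tested on simulated data. The members and gene lists were chosen with earlier results of these data known. Named were *Kcnj15*, *Mkx*, members past the threshold, the 3 members per family with the highest WT level per kb, members beside the count limit, neighbours of *Kcnj15*, at most 5 potassium transport genes by p, and abundant markers. Other reported members, *Kcnj11*, *Kcna7*, *Kcnmb1*, *Kcnk3*, *Ets2*, *Brwd1*, *Atp12a*, *Xist*, *Ddx3y* and *Ecscr* were named outside that rule, after their values were seen. Coordinates and exon lengths are those of GENCODE vM1 (mm9). The sources used here do not say that replicates came from separate animals, so p-values measure only the spread between these samples. By its *Xist* and *Ddx3y* counts, WT library 3 stood apart from all other libraries of either genotype. Alternatives were DESeq2 1.42.0, other scalings, filters, a robust fit, a replicate block and leaving out each library. Some genes that these rules name are not reported here, although counts over all members include them.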

Additional observations from a re-analysis of the deposited data

How the results depend on the processing

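The log2 fold change of *Kcnj15* (5.90 to 6.32) and the calls of *Kcnma1* and *Erg* kept their direction and their side of the threshold under every alternative run. With scaling to total counts only, where the median of all genes shifted to 0.25, 5 members rose and the members' median was 0.62. Requiring 10 counts in every library left 3 members that fell, because *Kcnb2* and *Kcng1* then had too few counts to enter. Leaving out 1 library, and so with fewer samples, gave 0 to 3 members that rose, 2 to 4 that fell, a median of 0.15 to 0.45, and 1 to 2 called genes around *Kcnj15*. Directions turned for *Kcnk2* (0.17) and *Kcnk6* (0.15) with total counts, for *Kcnk6* without WT replicate 3 (0.12) or *Mkx*-/- replicate 2 (0.078; -0.38 to 0.12 over the 6 omissions), and for *Kcnj10* (-0.20 to 1.42) and *Kcnj8* (-0.30 to 0.62) without *Mkx*-/- replicate 3. With the replicate number as a block, 0 members rose and 2 fell (*Kcnma1* among them). Whether the numbers pair the samples is not known. Same-numbered libraries had correlations of 0.026, -0.21 and 0.30 in their deviations from the group means, and differently numbered ones -0.39 to 0.40. These values cannot decide it, because the deviations add up to 0 within a group and no paired libraries were there for comparison. DESeq2 called 4 members that rose and 5 that fell. The cause of these shifts was not tested. Members under about 20 counts per library rest on few reads, and their values are limited by counting error.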
